A study of Mus musculus with 2 samples.

Results

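The genes described here are 54 markers of the non-neural cells of the brain, measured in RNA from newborn mouse forebrain. They were taken from a fixed list of symbols, and each symbol matched 1 row of the gene tables by its Ensembl identifier, out of 43346 genes listed in those tables. By the cells they are known to mark they form 5 groups: 12 endothelial, 6 mural, 12 meningeal, 11 choroid plexus or ependymal and 13 microglial genes. Cspg5, listed with the mural genes, encodes neuroglycan C, a proteoglycan known from neurons and glia, so mural counts are also given without it. The pericyte gene with the similar name, Cspg4, is not on the list and is described with the further mural genes.

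Both libraries were made from 13 pg of RNA longer than 200 nt, described as 1 cell-equivalent, from the forebrain of a mouse of strain B6NCrl at postnatal day 0. The labels describe them as single forebrains of pup 1 (replicate 1) and pup 3 (replicate 2), yet give both the same donor identifier; they are taken here as separate animals. The labels call the assay total RNA-seq and the molecule total RNA, and point to a Smart-seq protocol, a method that amplifies cDNA by PCR; whether polyadenylated RNA was selected is not stated in them. The labels name no genetic change and no treatment, and the sex of the animals was not collected. The assay is catalogued as single-cell RNA sequencing, but the RNA was extracted from whole tissue, so that each library is a small draw from the RNA of mixed cells. There is 1 group of 2 libraries and no contrast between conditions: values are given for each pup, no difference between the pups was tested, and spread between animals cannot be told apart from spread between library preparations. In RNA from mixed tissue, fewer cells of a type and less RNA per cell cannot be told apart either.

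The expected counts, which are reads estimated per gene, summed to 41082811 in pup 1 and 29881397 in pup 3. Spike-in transcripts held 4.46% and 7.30% of TPM, a measure of transcript abundance per length that sets each library to the same total. A gene is called found in a library at TPM of 1 or more, which took in 9048 of 21461 nuclear protein-coding genes in pup 1 and 6210 in pup 3. As a check of the tissue label, 10 of 15 forebrain genes were found in both pups. The highest were Sst at 443 and 379 TPM in pups 1 and 3, Neurod6 at 272 and 456 TPM and Gad1 at 263 and 141 TPM, while the patterning genes Emx2 and Dlx2 had 0 reads in both. Of 18 markers of lymphocytes, neutrophils, mast cells and platelets, 17 had 0 reads in both pups. The same held for 10052 of the 21461 nuclear protein-coding genes. The remaining marker, Itga2b of platelets, had 71 reads in pup 1 alone. Red cell genes were not on this list.

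Endothelial cells line the brain's vessels and, sealed by tight junctions and equipped with selective transporters, form the blood-brain barrier, while mural cells (pericytes on capillaries and smooth muscle on arteries) wrap around them. The meninges are fibroblast-rich membranes on the brain's surface that secrete collagens and retinoic acid. The choroid plexus is a secretory epithelium that makes cerebrospinal fluid, next to the ciliated ependyma that lines the ventricles. Microglia are the resident macrophages of the brain, which arise in the yolk sac, enter the brain in the embryo and engulf dying cells and synapses after complement proteins have tagged them.

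Of the 54 genes, 16 were found in both pups, 16 only in pup 1, 4 only in pup 3 and 18 in neither. That is 29.6% in both, beside 24.7% of all nuclear protein-coding genes, and 29.6% in pup 1 alone, beside 17.4%. The share in pup 3 alone was 7.41%, beside 4.22%. Without Cspg5 the genes found in both numbered 15 of 53. The groups differed in these counts. Members found in both made up 5 of 12 endothelial, 3 of 6 mural (2 of 5 without Cspg5), 5 of 12 meningeal, 2 of 11 choroid plexus or ependymal and 1 of 13 microglial genes. Most of those found in a single pup had no read at all in the other, namely 14 of the 16 found in pup 1 alone and 3 of the 4 found in pup 3 alone. This share was not computed over all protein-coding genes, so it is not shown to be particular to these markers. The genes of pup 1 alone had 346 to 3786 reads and 3.52 to 85.3 TPM there, which does not tell how many molecules those reads came from. A floor of 3 reads corresponds to 0.0172 to 0.278 TPM for the 54 genes; it covers counting error only, since amplified copies of 1 molecule were not told apart.

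**Figure D1:**
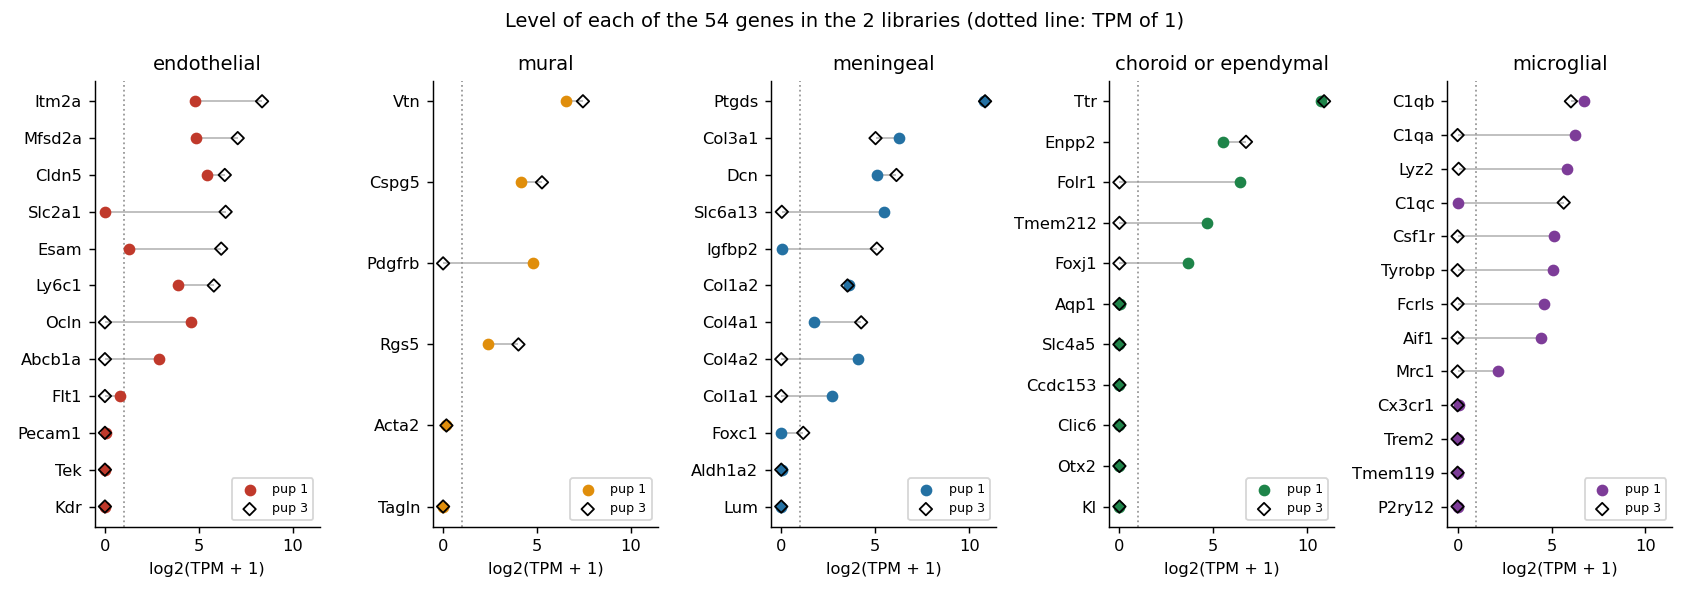
Level of each of the 54 genes in pup 1 (filled circles) and pup 3 (open diamonds), as log2(TPM + 1) on the horizontal axis, 1 panel per group with genes ordered by mean level; the dotted line marks TPM of 1. Ttr and Ptgds nearly coincide between the pups, the 5 endothelial genes found in both lie to the right in pup 3, and the 7 microglial genes seen only in pup 1 lie at or next to 0 in pup 3.

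Level went with detection, in part by construction. The mean is taken over the same 2 libraries, so a gene missed in 1 pup falls to a lower class. Folr1, at 85.3 and 0 TPM, had a mean of 42.6 TPM. This holds for the listed genes and for all protein-coding genes alike. All 10 genes at a mean of 50 TPM or more were found in both pups, as were 95.6% of all protein-coding genes at that level. At a mean of 10 to 50 TPM, 5 of 19 members were found in both, beside 53.1% of protein-coding genes of that level. A further 11 were found in pup 1 alone, beside 36.2%, and 3 in pup 3 alone, beside 10.7%. Of these 19 genes 7 are microglial, and they account for 6 of the 11 found in pup 1 alone, 1 of the 3 found in pup 3 alone and 0 of those found in both.

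**Figure D2:**
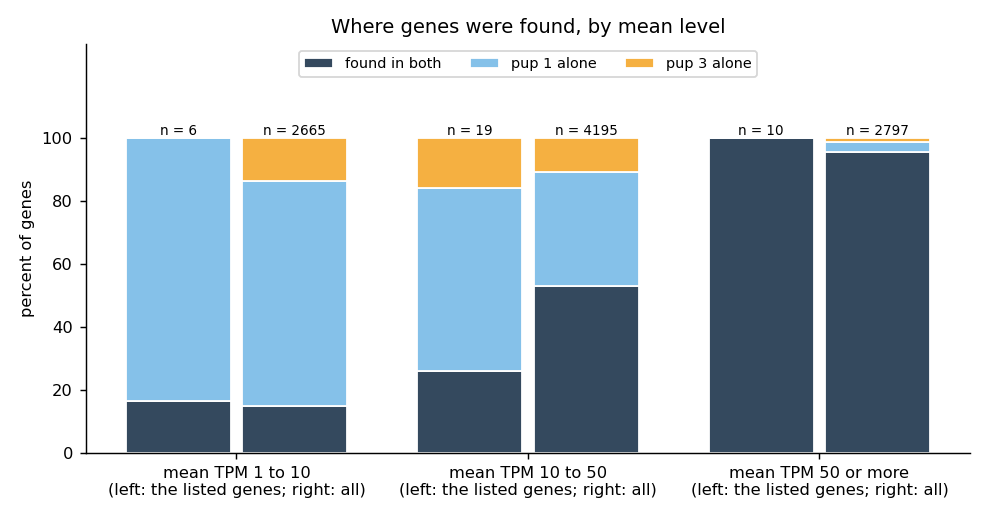
Percent of genes found in both pups or in a single pup, stacked, in 3 classes of mean TPM; the left bar of each pair is the listed genes with a mean of 1 TPM or more and the right bar all nuclear protein-coding genes, with their numbers above. In the middle class 5 of 19 listed genes were found in both, beside 53.1% of all genes.

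Among the 16 genes found in both pups, 13 had the higher level in pup 3 (81.3%, beside 53.8% of the 5305 protein-coding genes found in both), and 9 were higher there by 2-fold or more (56.3%, beside 27.1%). Col3a1 alone was higher in pup 1 by 2-fold or more (6.25%, beside 22.5%). On log2(TPM + 1), the median difference, pup 3 less pup 1, was 1.07 over these 16 genes and 0.13 over the 5305. Over the 42 members with any signal it was -0.070, and over the 11402 protein-coding genes with any signal -0.49. The 13 became 14 on FPKM, where Col1a2 changed side and the median of all genes was 0.25 higher. No other scaling that was run changed the side of any of the 16 genes.

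**Figure D3:**
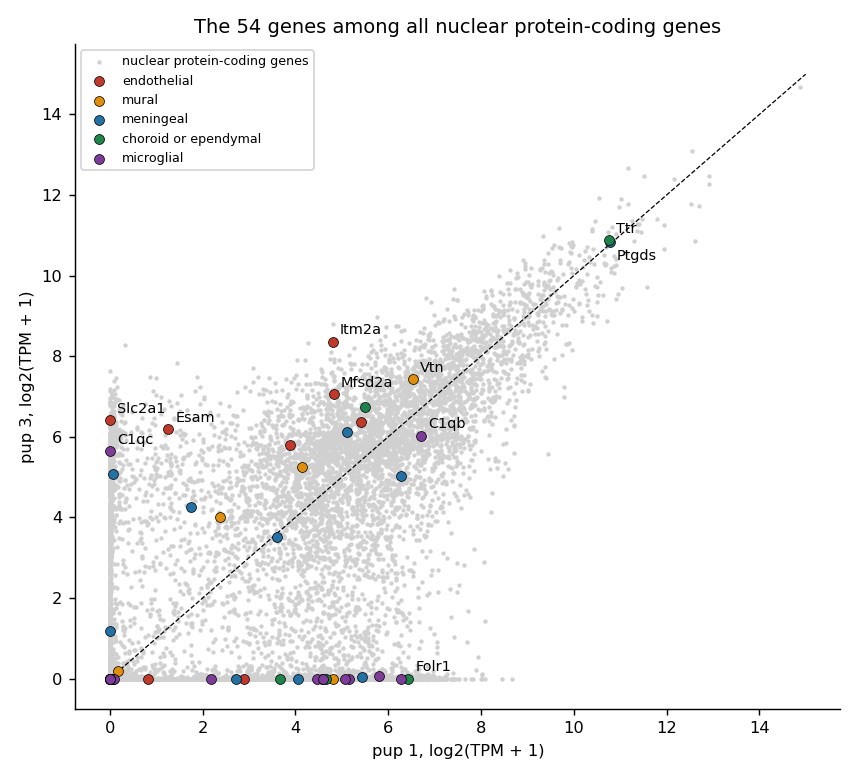
Level in pup 3 against level in pup 1, as log2(TPM + 1), for all nuclear protein-coding genes (grey) and the 54 listed genes (coloured by group); the dashed line marks equal levels. Itm2a, Mfsd2a, Vtn and the other endothelial and mural genes found in both lie above the line, and C1qb lies below it.

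The endothelial group was higher in pup 3. Its summed level was 141 TPM for pup 1 against 755 TPM for pup 3, a ratio of 5.34, and 7 of the 12 genes were found in pup 1 and 6 in pup 3. Itm2a, a membrane protein gene of developing brain endothelium, made the largest part of the difference, at 26.9 TPM (1172 reads) in pup 1 and 328 TPM (12508 reads) in pup 3, a ratio of 12.2. Without it the sums were 114 and 427 TPM. Itm2a ranked 4553rd among protein-coding genes in pup 1 and 460th in pup 3. A lipid transporter gene and a claudin gene went the same way. Mfsd2a, which carries lysolipids across the barrier, was at 27.3 and 133 TPM, a ratio of 4.88. Cldn5, the main claudin of brain endothelial tight junctions, was at 41.8 and 82.2 TPM, with deposited credibility bounds of 38.9 to 43.1 and 77.2 to 83.5 TPM. Such bounds belong to 1 library each and do not cover spread between library preparations or animals. The surface antigen gene Ly6c1 was at 13.8 and 54.5 TPM; its near copy Ly6c2 took 0 and 2.36 reads. Esam, an adhesion molecule of endothelial junctions, was the farthest apart of the genes found in both, with 65 reads (1.39 TPM) in pup 1 and 2930 reads (71.9 TPM) in pup 3, a ratio of 51.7. All 5 of these genes were thus higher in pup 3.

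The other endothelial genes were found in 1 pup or in neither. Slc2a1, the glucose transporter GLUT1, had no read in pup 1 (0 reads) against 4931 reads (84.8 TPM) in pup 3, which is 905 times the floor of 3 reads in pup 1. The tight junction gene Ocln went the other way, with 1537 reads (22.9 TPM) in pup 1 and 0 reads in pup 3. The efflux pump gene Abcb1a also had reads in pup 1 alone, 443 of them (6.41 TPM), all assigned to a transcript annotated as a retained intron, while its close copy Abcb1b had 0 reads in pup 1 and 633 in pup 3. The growth factor receptors that define endothelium were hardly seen. Kdr and Tek, the receptors for VEGF and angiopoietin, had 0 reads in both pups, Flt1 had 132 reads in pup 1 (0.76 TPM) and 0 in pup 3, and the adhesion molecule gene Pecam1 had 1 read in pup 1.

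The promoters of the endothelial gene with the widest gap in TPM and of the tight junction gene found in both pups are shown from 250 bases before to 50 bases after the RefSeq start, on build GRCm38.p6. Capitals mark the letters AGGAAG on either strand, a core bound by ETS factors, which are known regulators of endothelial genes. Itm2a lies on the minus strand at chrX:107403311-107403610, and Cldn5 on the plus strand at chr16:18776597-18776896.
Itm2a: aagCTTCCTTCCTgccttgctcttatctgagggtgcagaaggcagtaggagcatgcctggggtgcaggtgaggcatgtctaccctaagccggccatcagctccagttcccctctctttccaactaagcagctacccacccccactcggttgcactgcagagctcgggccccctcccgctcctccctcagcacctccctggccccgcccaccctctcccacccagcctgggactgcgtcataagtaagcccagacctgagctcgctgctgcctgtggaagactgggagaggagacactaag
Cldn5: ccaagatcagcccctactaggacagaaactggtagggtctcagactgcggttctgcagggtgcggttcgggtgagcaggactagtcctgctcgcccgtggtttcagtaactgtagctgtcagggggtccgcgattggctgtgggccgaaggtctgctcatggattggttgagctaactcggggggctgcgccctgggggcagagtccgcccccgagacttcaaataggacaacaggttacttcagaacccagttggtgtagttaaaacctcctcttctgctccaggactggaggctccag
The Itm2a window held 2 overlapping matches, far upstream of the start, and the Cldn5 window held 0, which says only that these letters are not in this window. Of all 32851 promoter windows in the table, 35.4% held a match, as did 20 of the 45 windows that belong to 37 of the 54 genes.

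Mural genes found in both pups were also higher in pup 3. The group's summed level was 139 TPM in pup 1 and 225 TPM in pup 3, and 122 and 188 TPM without Cspg5. Without Vtn, the highest member, the sums were 47.9 and 52.6 TPM, and without both genes 31.2 and 15.2 TPM, higher in pup 1. Vtn, which encodes the matrix protein vitronectin and is expressed by brain pericytes, led the group at 91.1 TPM (3967 reads) and 173 TPM (6376 reads). Rgs5, a G protein regulator of pericytes, was at 4.15 and 15.1 TPM. Cspg5 was at 16.7 and 37.4 TPM. Pdgfrb, the receptor by which pericytes are recruited to vessels, lay the other way, with 3786 reads in pup 1 (26.9 TPM) and 0 reads in pup 3. Its level in pup 1 was 1104 times the floor of 3 reads in pup 3. Of the listed smooth muscle genes, Tagln had 0 reads in both pups and Acta2 had 6 and 5 reads, while the skeletal actin gene Acta1, whose sequence is close to that of Acta2, had 664 reads in pup 1 and 1 in pup 3.

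**Figure D4:**
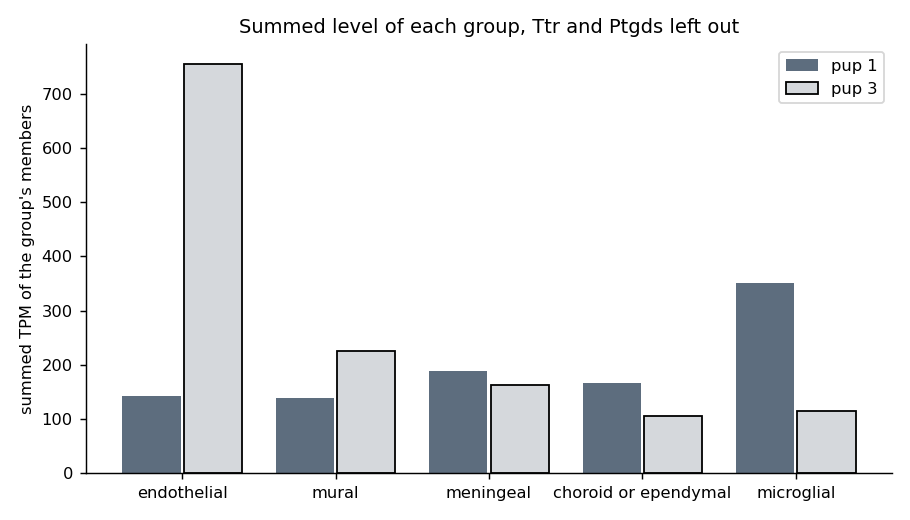
Summed TPM of the members of each group in pup 1 (dark bars) and pup 3 (light bars), with Ttr and Ptgds left out because each holds 90.3% or more of its group's sum. The endothelial sum was 141 and 755 TPM, and the microglial sum 351 and 114 TPM.

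Meningeal genes had nearly the same sum in both pups, 1938 and 2004 TPM, and a single gene held 90.3% and 91.9% of it. Ptgds, the lipocalin-type prostaglandin D synthase made by meningeal and choroid plexus cells, was at 1750.0 TPM (33078 reads) in pup 1 and 1841 TPM (30242 reads) in pup 3. It ranked 39th and 33rd among nuclear protein-coding genes. The other 11 genes summed to 188 and 163 TPM. Collagen III (Col3a1), a fibrillar collagen of fibroblasts, was at 76.9 and 31.4 TPM, but 60.3% of the level in pup 1 was assigned to a transcript of 737 bases on 785 reads, and the transcript of 5564 bases stood at 30.5 and 24.4 TPM. The collagen-binding proteoglycan decorin (Dcn) was at 33.4 and 69.0 TPM. Col1a2 was level at 11.2 and 10.5 TPM, whereas Col1a1, which encodes the other chain of collagen I, had 870 reads (5.62 TPM) in pup 1 and 0 reads in pup 3. Slc6a13, the GABA transporter GAT2 of leptomeninges, had 2411 reads in pup 1 and 1 in pup 3. Igfbp2, an IGF-binding protein that radial glia and choroid plexus also make, had 1 read in pup 1 and 689 in pup 3. The transcription factor gene Foxc1 was just over the threshold in pup 3 at 1.25 TPM, with 0 reads in pup 1. The retinoic acid enzyme gene Aldh1a2 had 2 reads in pup 1 and 0 in pup 3, and lumican (Lum), a neighbour of Dcn on chromosome 10, had 0 reads in both pups.

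The basement membrane collagen genes Col4a1 and Col4a2 were seen in opposite proportions in the pups. Both encode chains of the same collagen IV trimer, and vessels as well as meninges make it. Col4a1 had 408 reads (2.36 TPM) in pup 1 and 2727 reads (18.1 TPM) in pup 3. Col4a2 had 2652 reads (15.7 TPM) in pup 1 and 0 reads in pup 3, where the deposited upper bound was 0.282 TPM. The higher chain was thus Col4a2 in pup 1 and Col4a1 in pup 3. These genes stand head to head on mm10 chromosome 8, Col4a1 at 11198423 to 11312826 on the minus strand and Col4a2 at 11312805 to 11449287 on the plus strand, so that the annotated genes overlap by 22 bases. The RefSeq promoter windows of the pair share 78 bases, 11312777 to 11312854, which are in capitals in the Col4a1 window (minus strand, chr8:11312777-11313076, build GRCm38.p6), shown because both genes start within the shared bases.
Col4a1: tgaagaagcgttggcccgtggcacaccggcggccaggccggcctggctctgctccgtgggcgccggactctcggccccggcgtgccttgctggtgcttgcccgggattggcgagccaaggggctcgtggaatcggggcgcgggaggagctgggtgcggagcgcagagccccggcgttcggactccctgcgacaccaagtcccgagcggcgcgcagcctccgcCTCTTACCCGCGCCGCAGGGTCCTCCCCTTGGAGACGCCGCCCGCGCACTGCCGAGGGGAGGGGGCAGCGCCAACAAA

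The choroid plexus and ependymal group was carried by Ttr, with the other genes mostly at 0. Ttr encodes transthyretin, the thyroid hormone carrier that choroid plexus epithelium secretes into cerebrospinal fluid, and stood at 1724 TPM (51233 reads) in pup 1 and 1898 TPM (49252 reads) in pup 3, ranks 40 and 30 among protein-coding genes. It held 91.2% and 94.7% of the group's sum. Enpp2, which encodes the lysophospholipid-producing enzyme autotaxin and is also made by oligodendrocyte precursors, was at 44.5 and 105.5 TPM. The folate receptor gene Folr1, a choroid plexus transporter, had 1424 reads (85.3 TPM) in pup 1 and 0 reads in pup 3. Foxj1, the master regulator of motile cilia, had 787 reads (11.8 TPM) and 0 reads, and Tmem212, a membrane protein gene of ciliated cells, 400 reads (24.4 TPM) and 0 reads. Of the other 6 genes, Aqp1, the water channel of choroid plexus, had 1 read in pup 1, and Kl, Otx2, Clic6, Ccdc153 and Slc4a5 had 0 reads in both pups. Apart from Ttr the group summed to 166 TPM in pup 1 and 106 TPM in pup 3, all of the latter from Enpp2.

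Microglial genes were higher, and seen more often, in pup 1. They summed to 351 TPM in pup 1 and 114 TPM in pup 3, a ratio of 3.09, and 8 of 13 were found in pup 1 against 2 of 13 in pup 3. Over all 21461 protein-coding genes 9048 and 6210 were found. The genes of microglial surface proteins were uneven: P2ry12, Tmem119 and Trem2 had 0 reads in both pups and the fractalkine receptor gene Cx3cr1 had 5 reads in pup 1, whereas others were found in pup 1. Csf1r, the receptor on which microglial survival depends, had 3459 reads (34.5 TPM) in pup 1 and 0 reads in pup 3. The adaptor gene Tyrobp, whose product DAP12 signals for TREM2, had 403 reads (32.7 TPM) in pup 1, and 0 in pup 3. Fcrls, an Fc receptor-like gene of microglia, had 1321 reads (23.3 TPM) and Aif1, which encodes the marker protein IBA1, 365 reads in pup 1, and both had 0 reads in pup 3. Lyz2, the lysozyme gene of myeloid cells, had 1704 reads (55.0 TPM) in pup 1 and 1 read in pup 3, and its near copy Lyz1 had 0 reads in both. Mrc1, the mannose receptor gene of macrophages at the brain's borders, reached 3.52 TPM (346 reads) in pup 1, against 0 reads in pup 3.

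The C1q genes encode the 3 chains of 1 complement protein, which microglia make. C1qb was found in both pups, at 104 TPM (2736 reads) in pup 1 and 64.4 TPM (1476 reads) in pup 3. C1qa had 1904 reads (76.2 TPM) in pup 1, which is 554 times the floor of 3 reads in pup 3, and 0 reads in pup 3. C1qc was the reverse, with 0 reads in pup 1 and 1257 reads (49.1 TPM) in pup 3, which is 424 times the floor of 3 reads in pup 1. Each pup therefore showed 2 of the 3 chains, and not the same 2. Without C1qb the microglial sum was 246 TPM in pup 1 and 49.2 TPM in pup 3, of which C1qc held 49.1 TPM.

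The C1q genes lie in a row on the minus strand of mm10 chromosome 4, C1qb at 136880129 to 136886187, C1qc at 136889804 to 136893065 and C1qa at 136895917 to 136898803. The gaps between them are 3616 and 2851 bases. The promoter windows of C1qb (chr4:136886151-136886450) and C1qc (chr4:136892865-136893164), minus strand, build GRCm38.p6, are shown because these neighbours differed in where they were seen. Capitals mark GAGGAA on either strand, a core bound by PU.1, the transcription factor of the macrophage lineage.
C1qb: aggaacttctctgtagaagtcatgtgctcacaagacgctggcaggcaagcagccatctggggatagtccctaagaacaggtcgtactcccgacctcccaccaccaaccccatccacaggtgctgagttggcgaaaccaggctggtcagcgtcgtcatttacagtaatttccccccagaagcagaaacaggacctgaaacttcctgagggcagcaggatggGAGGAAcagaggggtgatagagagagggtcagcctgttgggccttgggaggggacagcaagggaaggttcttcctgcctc
C1qc: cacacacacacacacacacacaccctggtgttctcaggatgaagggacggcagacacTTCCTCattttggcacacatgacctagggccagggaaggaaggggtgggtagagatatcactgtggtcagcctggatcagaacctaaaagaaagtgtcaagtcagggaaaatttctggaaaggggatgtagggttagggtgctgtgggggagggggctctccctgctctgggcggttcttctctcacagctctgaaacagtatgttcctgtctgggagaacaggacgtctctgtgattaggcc
Each window held 1 match, as did 28.3% of all promoter windows at least once. A match is a string of letters and not a shown binding site.

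Pdgfrb of pericytes and Csf1r of microglia, neighbours on chromosome 18 with 15536 bases between them, both had reads in pup 1 (3786 and 3459) and 0 reads in pup 3.

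Ligand genes were set beside the genes of their receptors. Il34, which encodes a neuronal ligand of the Csf1r product, had 0 reads in pup 1 and 1765 reads (74.0 TPM) in pup 3, the opposite of Csf1r, and the gene of the other ligand, Csf1, had 85 reads in pup 1 (1.12 TPM). Cx3cl1, the neuronal ligand of the fractalkine receptor, was found in both pups at 27.4 and 42.6 TPM, while Cx3cr1 was not found. Vegfa had 1 read in pup 1 and Pdgfb 0 reads in both. Vegfb, which binds Flt1, had 610 reads in pup 1 and 0 in pup 3, and Angpt1, which binds the Tek product, 0 reads in pup 1 and 1280 reads in pup 3. Of 26 ligands and partners, 4 were found in both pups, 4 only in pup 1, 2 only in pup 3 and 16 in neither. Of all nuclear protein-coding genes, 24.7% were found in both pups, 17.4% only in pup 1 and 4.22% only in pup 3. Apoe, a ligand of TREM2 that astrocytes also make, was level at 1172 and 1183 TPM, and the growth factor gene Igf1 was at 38.9 and 50.9 TPM.

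Longer lists of markers of the same cells gave counts of the same kind. For comparison, 24.7% of all nuclear protein-coding genes were found in both pups, 17.4% only in pup 1 and 4.22% only in pup 3. Of 30 further endothelial genes 8 were found in both pups, 7 only in pup 1, 1 only in pup 3 and 14 in neither, and their sums were equal at 1095 TPM in each pup, so that the 5.34-fold ratio of the 12 listed genes was not seen there. Without the highest gene, Bsg, the sums were 437 and 219 TPM, higher in pup 1. Bsg, the widely expressed partner of monocarboxylate transporters, made most of the 1095 TPM, at 658 and 876 TPM, followed by Egfl7 of the endothelial matrix at 145 and 19.8 TPM and the efflux pump gene Abcg2 at 54.9 and 72.7 TPM. Cdh5, the cadherin that defines endothelium, had 847 reads in pup 1 and 0 in pup 3, and Tie1, Emcn, Erg and Sox17 had 0 reads in both. Of 16 further mural genes 1 was found in both, 4 only in pup 1 and 2 only in pup 3. Their sums were 146 and 83.5 TPM, higher in pup 1 where the sum of the 6 listed genes was lower. That order rested on Rgs4, without which the further mural genes summed to more in pup 3, as the 6 listed genes did. The highest were Rgs4, which neurons also express, at 109.5 and 42.3 TPM, Notch3 with 3 reads in pup 1 and 21.5 TPM in pup 3, and the myosin light chain gene Myl9 at 20.8 TPM in pup 1, against 1 read in pup 3. Cspg4 had 1116 reads in pup 1 (5.29 TPM) and 1 read in pup 3, and the smooth muscle myosin gene Myh11 1 read in pup 1 and 2965 reads in pup 3.

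Of 24 further meningeal and fibroblast genes 6 were found in both pups, 6 only in pup 1 and 2 only in pup 3, with sums of 752 and 367 TPM. The matrix protein gene Sparc, which vessels and glia also express, was at 393 and 151 TPM, the growth factor gene Igf2 at 155 and 37.8 TPM, and the matrix Gla protein gene Mgp at 28.7 and 61.1 TPM. Foxd1, Foxc2 and Tbx18 had 0 reads in both. Of 24 further choroid plexus genes 2 were found in both pups, 6 only in pup 1 and 1 only in pup 3, with sums of 243 and 175 TPM. Krt18, an epithelial keratin, was at 26.9 and 61.9 TPM, the calmodulin-like gene Calml4 at 27.2 and 48.3 TPM, and the sodium pump subunit gene Atp1b1, which neurons also express, at 77.6 and 0.14 TPM. The choroid plexus channel gene Kcne2 had 0 reads in pup 1 but 2360 in pup 3, against the direction of Folr1, and Sostdc1 1709 reads in pup 1 and 0 in pup 3. Of 18 further ependymal and cilia genes 1 was found in both pups, 3 only in pup 1 and 3 only in pup 3, with sums of 49.7 and 198 TPM. They were led by Tppp3, a tubulin-binding protein gene, with 3 reads in pup 1 and 122 TPM in pup 3, by the ciliogenic factor gene Rfx3 at 23.0 and 37.0 TPM and by Meig1 at 32.0 TPM in pup 3, against 0 reads in pup 1.

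Further microglial genes also summed to more in pup 1, as did the further mural, meningeal and choroid plexus lists. For the mural list this rested on Rgs4, without which it was higher in pup 3. In the choroid plexus list Atp1b1 alone stood at 77.6 and 0.14 TPM, beside sums of 243 and 175 TPM. Without their highest genes the microglial list stood at 276 and 107 TPM and the meningeal list at 359 and 216 TPM. Of the 28 further microglial genes, 4 were found in both pups, 8 only in pup 1, 1 only in pup 3 and 15 in neither, with sums of 407 and 171 TPM. The lysosomal protease gene Lgmn was at 131 and 64.0 TPM, the cathepsin gene Ctss at 71.8 and 3.71 TPM, and the Fc receptor chain gene Fcer1g had 1 read in pup 1 and 91.6 TPM in pup 3. The lineage factor gene Spi1 (PU.1) and Itgam had 0 reads in both. Of 14 genes of border macrophages, which live in meninges, choroid plexus and around vessels, 6 were found in pup 1 and 0 in pup 3. Over all 21461 nuclear protein-coding genes 9048 were found in pup 1 and 6210 in pup 3. Pf4 was at 40.9 TPM, F13a1 at 33.3 TPM and Dab2 at 16.6 TPM in pup 1, while none of these had a read in pup 3, and the receptor genes Cd163 and Lyve1 had 0 reads in both. Of genes of other cell classes of the same tissue, 15 of 16 pan-neuronal and 13 of 16 radial glia and astrocyte genes were found in both pups. These lists hold genes of higher level. Their medians in pups 1 and 3 were 161 and 124 TPM for neuronal and 68.9 and 88.3 TPM for glial genes. The medians of the 54 genes were 6.0 and 0 TPM. Their sums were 13369 and 6851 TPM for neuronal and 3217 and 3671 TPM for glial genes. Tubb3, the neuronal tubulin, led the former at 6275 and 1872 TPM, followed by Gap43 at 2242 and 1514 TPM and Stmn2 at 1786 and 1738 TPM. Fabp7 of radial glia led the latter at 1337 and 2289.6 TPM, followed by Id3 at 353 and 305 TPM and Vim at 379 and 173 TPM. The part of these differences in the ratios of the 54 genes was not tested.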

How the data were processed

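RNA from the forebrain of 2 newborn mice was sequenced at 13 pg per library. Per the file headers, which follow RSEM's layout, the authors deposited expected counts per gene and per transcript, in which a read that maps to several places is split among them. The deposited TPM, its posterior mean with credibility bounds (level not stated) and the deposited FPKM stand beside them. Assembly mm10 and annotation M4 are named in text deposited with each library. For aligner, counter, versions and strand setting, the sources used here give nothing.

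GENCODE M21 gave symbols, biotypes and positions, matched by unversioned identifier (42462 of 43346 genes matched, all 54 members among them). The members and lists were chosen with earlier results of these data known. Members at 10 TPM or more in either pup are named with their values, and the 3 highest of each further list; other genes named were chosen after their values were seen. Genes at TPM of 1 or more were called found. With 1 library per pup no test was made and no p-value is given. Log2 differences use a pseudocount of 1, which understates changes of low genes; ratios are of TPM itself. Folds against 0 reads use a floor of 3 reads in that library. TMM factors came from edgeR 4.0.16 and size factors from DESeq2 1.42.0, both on expected counts rounded to whole numbers and only for alternatives. The work ran in R 4.3.3 and in Python 3.11.15 with numpy 2.4.6, pandas 2.3.3 and matplotlib 3.10.9. The summaries were tested on simulated data. Promoter windows are RefSeq's.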

Additional observations from a re-analysis of the deposited data

How the results depend on the processing

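No paired analysis was possible because there is 1 group with 1 library per pup. Detection by TPM of 5 or 10, by 3 or more expected counts, by FPKM or by posterior mean TPM kept the counts of members within 1.5 times the reported ones: 13 to 18 in both pups, 13 to 18 in pup 1 alone and 4 to 6 in pup 3 alone. Leaving out a library gave 20 to 32 members found. The median log2 ratio of the 42 members with signal is near 0 and has no stable sign: -0.070 as reported, -0.43 with a pseudocount of 0.1, -0.036 on FPKM, -0.11 with DESeq2 size factors and 0 on posterior mean TPM. It turned to 0.073 over members at a mean of 10 TPM or more and to 0.96 over those at 10 TPM or more in both, which hold fewer genes by construction. Summed levels, as means of both pups, fell, without the highest member, from 182 to 50.3 TPM for mural, from 1971 to 175 TPM for meningeal and from 1946 to 136 TPM for choroid plexus and ependymal genes. Rescaling TPM without spike-ins and mitochondrial genes raised the last 2 to 2226 and 2199 TPM. It raised the other groups as well, endothelial from 448 to 513 TPM, mural from 182 to 207 TPM and microglial from 232 to 259 TPM. The endothelial sum was 5.20 to 6.41 times higher in pup 3 and the microglial sum 2.57 to 3.83 times higher in pup 1 over 6 scalings. With 2 libraries of 13 pg, a gene at 0 reads in 1 pup is not shown to be absent from that forebrain.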

Other observations

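The transcript tables show which isoform the reads of these genes were assigned to; such splits are estimates. The leading transcript was the same in both pups for 14 of the 16 genes found in both, and Dcn and Col3a1 were the exceptions. For Dcn, 91.3% of TPM in pup 1 lay in a transcript of 1794 bases (ENSMUST00000163448), which had 0 reads in pup 3, where all 2856 reads went to a transcript of 1886 bases (ENSMUST00000105287). For Col3a1, a transcript of 737 bases (ENSMUST00000186021) held 60.3% of TPM in pup 1 on 785 reads, while the transcript of 5564 bases held 4422 reads there and 3087 in pup 3. In TPM of that longer transcript the pups stood at 30.5 and 24.4, closer than the 76.9 and 31.4 TPM of the whole gene. Ptgds had nearly the same split in both pups, its leading transcript (ENSMUST00000114251) holding 67.4% and 65.4% of TPM, and Enpp2 put 1.46% in pup 1 and 23.7% in pup 3 into its transcript of 3398 bases (ENSMUST00000171545).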
